A study of Mus musculus with 6 samples.

Results

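Transcripts of 10 secreted or membrane-anchored factors that act mainly on monocytes, lymphocytes and dendritic cells were examined in 4T1 cells, a mouse mammary carcinoma line, grown in collagen I gels. They are the growth factor gene Csf1, the chemokine genes Ccl2, Ccl5, Ccl7, Ccl20, Cxcl10, Cxcl16 and Cx3cl1, and the epithelial cytokine genes Tslp and Il33. They were chosen by name, all 10 have a row among the 31017 genes of the count table, and 9 passed the filter on low counts, the exception being Ccl7. Poly(A) RNA came from 3 control libraries, of cells nucleofected with Cas9 and control guide RNAs, and 3 libraries labelled FGFR2 KO, of cells nucleofected with Cas9 and guides for that receptor, called KO libraries here. All cells of both groups had been through nucleofection, suspension in collagen I at 1.2 or 2.4 mg per ml, and release with collagenase at 300 U per ml for 10 min and a further 5 min. The labels do not say whether the edited cells were a pool or 1 clone, nor whether replicates were separate cultures, so p-values measure only how these libraries scatter, in part perhaps for technical reasons. They also give neither the collagen concentration of each library nor the culture time. Any difference in these between the groups could not be told apart from KO.

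Chemokines are small secreted proteins that guide leukocytes along a gradient through receptors on the leukocyte surface, and they are named for the spacing of their first cysteines (CC, CXC and CX3C). In breast tumours CSF1 and CCL2 are known for their part in recruiting and maintaining macrophages, CXCL10 and CCL5 for attracting T cells and natural killer cells, and TSLP and IL-33 as epithelial cytokines that act on dendritic cells and innate lymphocytes. CXCL16 and CX3CL1 are made as membrane-anchored proteins on a mucin stalk and are released by the proteases ADAM10 and ADAM17, and a form of CSF1 is also anchored and shed.

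Totals per library were between 15531790 and 20447719 counts. Fgfr2 itself stood at 99.7 ± 5.82 CPM (counts scaled to 1 common library total) in control libraries and at 92.6 ± 10.4 CPM under KO (SD, n = 3 each), a log2 fold change of -0.11 (edgeR quasi-likelihood adjusted p = 0.113), which does not test the label because an edited gene can still be transcribed. The epithelial markers of the line were abundant, with 9 of 9 tested and a summed level of 5342 to 5461 CPM among controls and 4429 to 4493 CPM under KO. Most markers of leukocytes were at or near 0, but Cd14 and Cd68 were not. The whole list summed to 23.7 to 26.3 CPM among controls and 16.2 to 17.2 CPM under KO, mostly from these 2 genes. Of 14 such genes, Cd3e, Adgre1, Fcgr1, Nkg7 and Cd8a had no count in any library, and the 11 genes other than Cd14, Cd68 and Csf1r summed to 0.109 to 1.13 CPM among controls and 0.346 to 0.535 CPM under KO. Cd68 fell from 13.7 to 5.97 CPM (log2 fold change -1.19), while Cd14 stood at 9.37 and 9.10 CPM. S100a8, below the filter, had 0, 19 and 13 counts among controls and 1, 4 and 2 counts under KO. Endothelial markers summed to at most 0.856 CPM in any library, and the fibroblast list, which is mostly Pdgfra, to 36.4 to 38.4 CPM and 39.8 to 45.5 CPM. Within that list Pdgfra did not pass (edgeR adjusted p = 0.143). Col1a1 was low and rose, from 0.437 to 1.24 CPM (log2 fold change 1.47, edgeR adjusted p = 0.0034), but it passed the filter on low counts only with its KO libraries. Below the filter, Dcn had 2 counts over the control and 33 over the KO libraries, Pdgfrb 2 and 26, Col1a2 1 and 3, and Fap 6 and 6. Col3a1, Lum and Thy1 had none.

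Csf1 and Tslp were higher in the KO libraries, and Ccl2, Ccl5, Ccl20, Cxcl10, Cxcl16, Cx3cl1 and Il33 were lower. The 2 rises were 1.64-fold and 1.79-fold. The falls ran from 84.1% of the control level for Cxcl16 to 37.0% for Ccl5. Thus 9 of 9 tested genes passed the threshold (adjusted p below 0.05), beside 54.6% of all 12158 tested genes, with 2 up beside 27.1% and 7 down beside 27.5%. The libraries of the groups did not overlap for any of these 9, beside 59.5% of all tested genes. Their median log2 fold change was -0.52, beside -0.0061 over all tested genes. Ccl7 is in none of these counts. These are bulk samples, so fewer cells expressing a gene and less RNA per cell cannot be told apart.

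**Figure D1:**
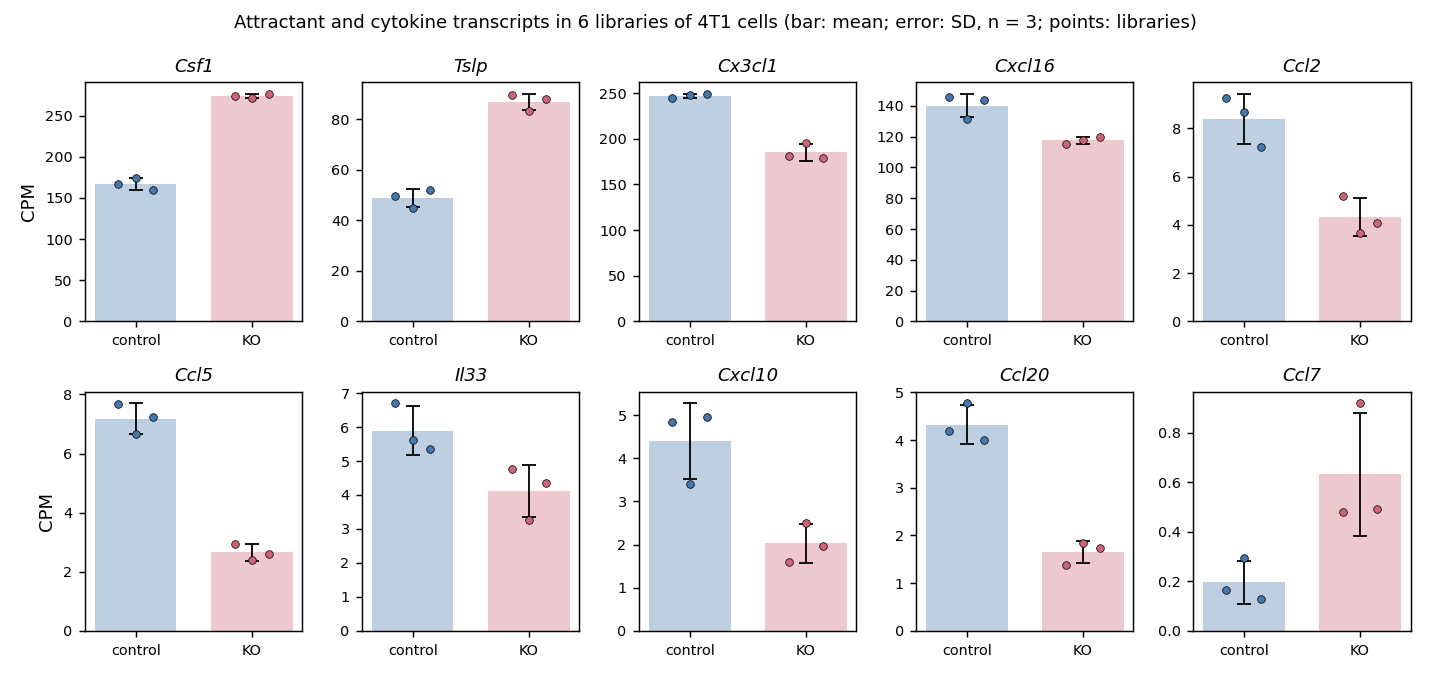
Level of each of the 10 genes (CPM, vertical axis from 0, a different scale in each panel) in the control and KO libraries; bars are means, error bars SD (n = 3) and points single libraries. Csf1, Tslp and Ccl7 are higher in every KO library than in any control library, and the other 7 genes are lower in every KO library.

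**Figure D2:**
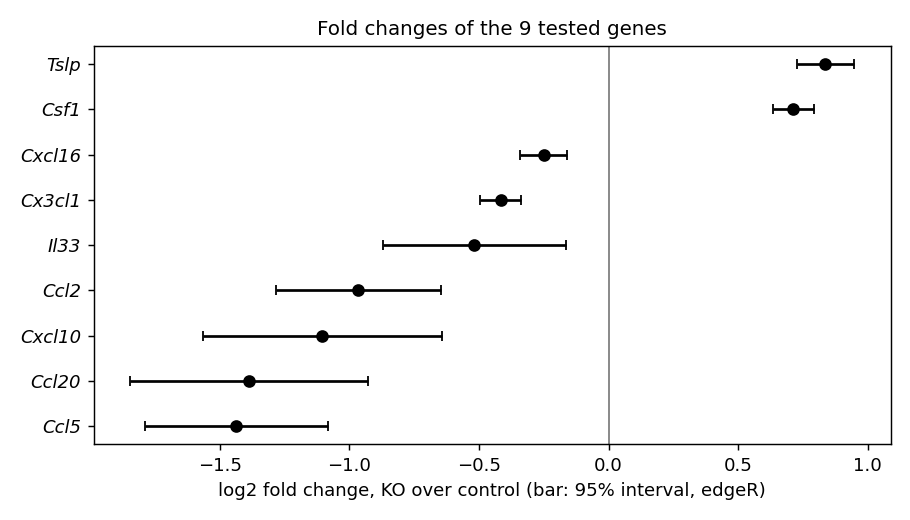
Log2 fold change of the 9 tested genes, KO over control (horizontal axis; points are edgeR estimates, bars 95% intervals). Tslp (0.84) and Csf1 (0.71) lie above 0 and the other 7 below it, from Cxcl16 (-0.25) to Ccl5 (-1.44), with the widest intervals for the genes with the fewest counts.

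The region before the transcription start is shown for 3 of these genes, those whose windows hold an NF-kB-like match. They differ in direction: Cxcl10 and Ccl20 fell and Csf1 rose. Promoter windows were found in the RefSeq table (GRCm38.p6) for 5 of the 10 genes, namely Csf1, Ccl20, Cxcl10, Cx3cl1 and Il33, and not for Ccl2, Ccl5, Ccl7, Cxcl16 and Tslp. The 250 bases before the annotated start are printed 5′ to 3′ on the gene's strand. Capitals mark matches to an NF-kB-like motif (GGG, 3 free bases, TTCC), an interferon-response motif (GAAA, 2 free bases, GAAA) and an AP-1 motif (TGANTCA), each searched on both strands. TATA box letters (TATAAA) and GC box letters (GGGCGG) were searched as well and are not marked.
Cxcl10 (chr5:92348890-92349139, minus strand): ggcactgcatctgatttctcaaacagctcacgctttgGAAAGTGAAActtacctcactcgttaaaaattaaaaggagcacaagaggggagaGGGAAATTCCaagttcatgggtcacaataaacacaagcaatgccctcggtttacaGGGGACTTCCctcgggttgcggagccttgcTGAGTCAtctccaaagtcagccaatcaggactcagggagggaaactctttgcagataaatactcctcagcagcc
Ccl20 (chr1:83116516-83116765, plus strand): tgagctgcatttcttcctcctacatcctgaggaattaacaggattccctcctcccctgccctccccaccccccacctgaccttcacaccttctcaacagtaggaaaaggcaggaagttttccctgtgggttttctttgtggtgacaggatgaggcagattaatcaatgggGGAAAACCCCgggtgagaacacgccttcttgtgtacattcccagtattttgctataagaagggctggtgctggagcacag
Csf1 (chr3:107760470-107760719, minus strand): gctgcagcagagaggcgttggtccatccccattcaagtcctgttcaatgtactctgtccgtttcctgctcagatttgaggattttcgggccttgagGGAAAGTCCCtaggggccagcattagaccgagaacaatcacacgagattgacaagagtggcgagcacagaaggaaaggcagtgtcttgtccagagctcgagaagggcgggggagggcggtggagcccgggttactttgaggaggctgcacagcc

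Cxcl10 holds 2 NF-kB-like matches, at -159 to -150 and -104 to -95 from the start, an interferon-response match at -213 to -204 and an AP-1 match at -74 to -68. Ccl20 holds 1 NF-kB-like match at -80 to -71, and Csf1 holds 1 at -154 to -145, both on the opposite strand. No match overlaps another. Of all 32851 windows of the same length in the table, 4.65% hold the NF-kB-like motif, 2.98% the interferon-response motif and 6.75% the AP-1 motif. The windows of both annotated Il33 starts hold none of the 3 motifs. Neither does that of Cx3cl1, but 171 of its 250 bases lie in a GENCODE exon, since GENCODE places that start further upstream. The NF-kB-like letters are thus found before genes that fell and before a gene that rose. A match describes letters and does not show that a factor binds there.

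Csf1 encodes the growth factor on which most tissue macrophages depend (chromosome 3, 107741048 to 107760469, minus strand, mm10). It had 167, 175 and 159 CPM in control replicates 1 to 3 and 274, 271 and 276 CPM in KO replicates 1 to 3. The KO libraries lay close together and far above the control libraries. The log2 fold change was 0.71 (SE 0.039, 1.64-fold, 95% interval 1.55 to 1.73, edgeR adjusted p = 4.09e-18). Il34, which encodes the other ligand of the CSF1 receptor, did not rise with it: it had 47.1, 48.8 and 51.1 CPM among controls and 41.8, 42.8 and 46.4 CPM under KO. That was a fall by 0.17 on the log2 scale (edgeR adjusted p = 0.0192). The call for Il34 was lost without control replicate 3 (0.0926), KO replicate 1 (0.0880) or KO replicate 2 (0.0587). Counts of Csf1 per count of Il34 in the same library went from 3.41 ± 0.256 in the control to 6.29 ± 0.297 in the KO libraries (SD, n = 3 each). Csf1r, the receptor of both, was near the detection limit with 7 to 27 counts in a control and 15 to 30 in a KO library, and its log2 fold change of 0.37 did not pass the test (edgeR adjusted p = 0.415, 95% interval -0.38 to 1.12). Kitl, which encodes stem cell factor, the ligand of the related receptor KIT, rose too, with 34.5 ± 0.835 CPM among controls and 52.8 ± 0.356 CPM under KO (SD, n = 3 each) and a log2 fold change of 0.61 (edgeR adjusted p = 3.56e-11). Against a minimum fold change of 1.5, Csf1 kept its call (edgeR adjusted p = 0.0038) and Kitl did not (1).

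Ccl2 and Ccl7 encode CC chemokines that draw monocytes out of the marrow and into tissue through the receptor CCR2. They are neighbours on chromosome 11, with Ccl2 at 82035571 to 82037453 and Ccl7 at 82045712 to 82047525, both on the plus strand and 8259 bases apart. For Ccl2 the control libraries had 170, 176 and 112 counts (9.27, 8.66 and 7.23 CPM) and the KO libraries 97, 72 and 83 counts (5.19, 3.68 and 4.10 CPM). The lowest control library was above the highest KO library. Ccl2 fell by 0.97 on the log2 scale (SE 0.16, edgeR adjusted p = 2.46e-06), to 51.2% of the control level (95% interval 41.1 to 63.9). Ccl7 was barely detected and lay the other way. It had 3, 6 and 2 counts among controls and 9, 18 and 10 counts under KO, or 0.196 ± 0.0878 and 0.632 ± 0.249 CPM (SD, n = 3 each). Only with the filter on low counts removed could it be tested, and there its log2 fold change of 1.63 (SE 0.70) did not pass (edgeR adjusted p = 0.053). For every 100 counts of Ccl2 a control library held 1.76 to 3.41 counts of Ccl7 and a KO library 9.28 to 25.0. The other genes of this cluster that were listed, Ccl8, Ccl11 and Ccl12, had no count in any library. The receptor gene Ccr2 had 2 counts over all control and 0 over all KO libraries, and Ccr1 and Ccr3, further receptors for these chemokines, had none.

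Ccl5 (RANTES), a CC chemokine for T cells, monocytes and eosinophils, had the deepest estimated fall of the set, though its interval overlaps those of Ccl20, Cxcl10 and Ccl2. The gene (chromosome 11, 83525778 to 83530518, minus strand) had 141, 135 and 112 counts among controls and 55, 47 and 53 counts under KO. These are 7.69, 6.65 and 7.23 CPM and 2.94, 2.40 and 2.62 CPM, so that the groups were far apart relative to their spread. Ccl5 fell by 1.44 on the log2 scale (SE 0.17, edgeR adjusted p = 8.13e-09), to 37.0% of the control level (95% interval 28.9 to 47.3). Taf15, an RNA-binding protein gene 19035 bases from Ccl5, stood at 395 and 440 CPM with a log2 fold change of 0.16, while Ccl6 and Ccl9 on the same stretch had at most 5 counts and 0 counts in any library.

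Cxcl10, an interferon-inducible CXC chemokine for activated T cells (chromosome 5, 92346638 to 92348889, minus strand), fell as well. It had 89, 69 and 77 counts among controls and 30, 49 and 40 counts under KO, or 4.85, 3.40 and 4.97 CPM and 1.60, 2.50 and 1.98 CPM. The spread within both groups was wide, but the groups did not overlap. The fall was by 1.10 on the log2 scale (SE 0.23, edgeR adjusted p = 9.19e-05), to 46.5% (95% interval 33.8 to 64.1). Art3, whose exons lie over 5.91% of the Cxcl10 exon length on the opposite strand, had no count in any library. Its relative Cxcl9, on the same receptor, had no count in the control and 3 counts over the KO libraries. The receptor gene Cxcr3 was itself expressed by the cultures and fell: it had 318, 433 and 316 counts in the control (17.3, 21.3 and 20.4 CPM) and 115, 136 and 167 counts in the KO libraries (6.15, 6.95 and 8.25 CPM). That is a fall by 1.46 on the log2 scale (SE 0.12, edgeR adjusted p = 1.85e-13). Ligand and receptor transcripts of the CXCL10-CXCR3 pair were thus both lower.

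Ccl20 encodes the ligand of CCR6, which brings immature dendritic cells, B cells and T cells of the Th17 type to epithelia (chromosome 1, 83116766 to 83119167, plus strand). It had 77, 97 and 62 counts among controls and 26, 36 and 35 counts under KO, which is 4.20, 4.78 and 4.00 CPM against 1.39, 1.84 and 1.73 CPM. Every KO library was below every control library. Ccl20 fell by 1.39 on the log2 scale (SE 0.23, edgeR adjusted p = 2.67e-06), to 38.2% of the control level (95% interval 27.8 to 52.6). Ccr6 had no count in any library.

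The membrane-anchored chemokines were abundant and fell by less. Cx3cl1 (fractalkine; chromosome 8, 94772009 to 94782427, plus strand), which binds CX3CR1 on monocytes and cytotoxic lymphocytes, had 245, 248 and 249 CPM among controls and 181, 196 and 179 CPM under KO. The control libraries hardly differed and all KO libraries were lower. It fell by 0.42 on the log2 scale (SE 0.039, edgeR adjusted p = 1.95e-11), to 74.9% (95% interval 70.9 to 79.2). Cxcl16 (chromosome 11, 70453983 to 70459984, minus strand), the ligand of CXCR6 on T cells and natural killer T cells, had 146, 131 and 144 CPM among controls and 115, 118 and 120 CPM under KO. Control replicate 2 was the nearest to the KO libraries. Cxcl16 fell by 0.25 on the log2 scale (SE 0.044, edgeR adjusted p = 9.89e-06), to 84.1% (95% interval 79.0 to 89.5). Against a minimum fold change of 1.5, neither Cx3cl1 nor Cxcl16 passed (edgeR adjusted p = 1 for both). Zmynd15, whose exons cover 18.27% of the Cxcl16 exon length on the opposite strand, went from 4.06 to 2.31 CPM (log2 fold change -0.81, edgeR adjusted p = 0.0017). Their receptors were scarcely detected, with 4 to 11 counts of Cx3cr1 in a library and 0 to 4 counts of Cxcr6.

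The proteases that release these chemokines did not move together. Adam10, the constitutive sheddase of both, rose from 219, 216 and 234 CPM to 272, 270 and 277 CPM (log2 fold change 0.29, SE 0.038, edgeR adjusted p = 3.36e-08). Adam17, the sheddase that is activated by stimuli and also releases CSF1, fell from 115, 110 and 112 CPM to 84.4, 81.6 and 82.1 CPM (log2 fold change -0.44, SE 0.045, edgeR adjusted p = 1.06e-10). Counts of Adam10 per count of Adam17 in the same library accordingly went from 1.99 ± 0.0957 to 3.30 ± 0.0780 (SD, n = 3 each). Adam8, a further membrane protease, went from 94.3 ± 0.622 down to 41.4 ± 1.84 CPM, a log2 fold change of -1.19 (edgeR adjusted p = 5.01e-21). Of the iRhom genes, whose products carry ADAM17 to the surface, Rhbdf2 did not pass (53.6 and 50.9 CPM, edgeR adjusted p = 0.282). Rhbdf1 fell by 0.13 (edgeR adjusted p = 0.0148), a call lost when control replicate 1 (0.0632), control replicate 3 (0.0873) or KO replicate 2 (0.0798) was left out. The inhibitor gene Timp3 had 1 count over the control and 2 over the KO libraries. In all, 1 of the 5 tested genes of this list rose and 3 fell, beside 27.1% up and 27.5% down among all tested genes.

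**Figure D3:**
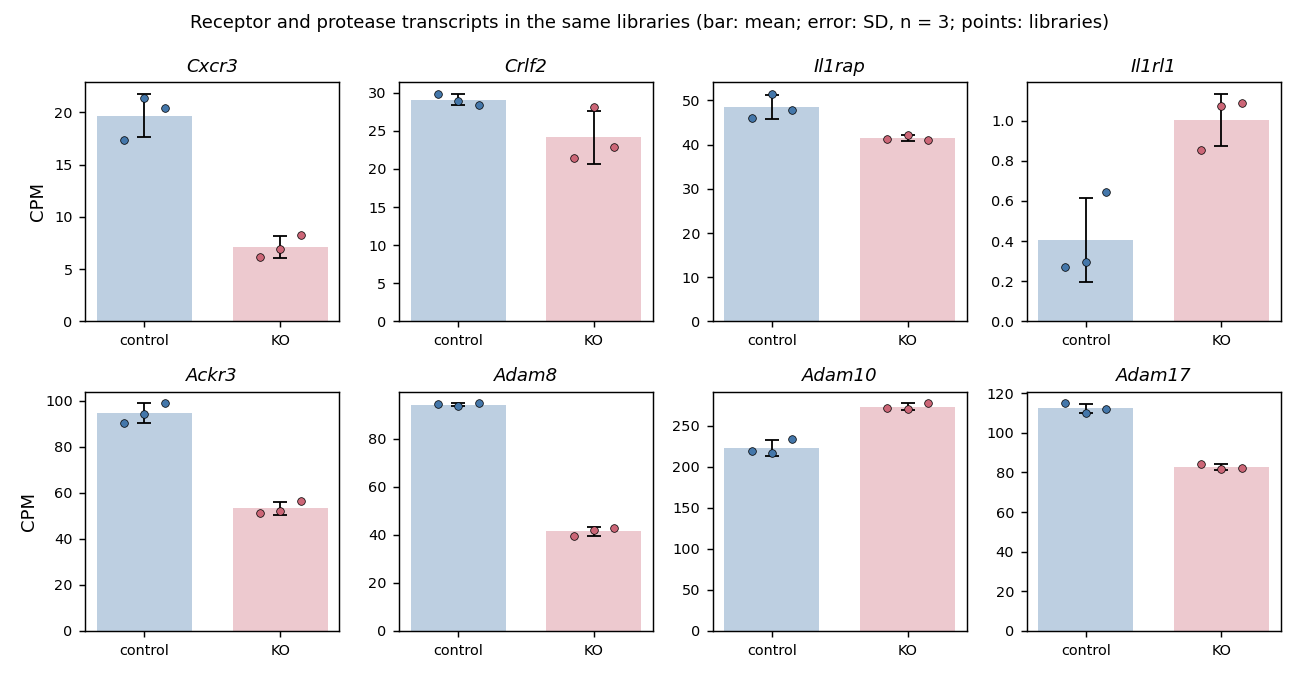
Level (CPM, vertical axis from 0, a different scale in each panel) of receptor and protease genes in the control and KO libraries; bars are means, error bars SD (n = 3) and points single libraries. Adam10 and Il1rl1 are higher in every KO library, and Cxcr3, Ackr3, Adam8, Adam17, Il1rap and Crlf2 are lower in every KO library, Crlf2 with KO replicate 2 (28.1 CPM) just below the lowest control (28.4 CPM).

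Tslp (thymic stromal lymphopoietin), a cytokine of epithelial cells that activates dendritic cells towards type-2 responses, had the largest estimated rise among the tested genes of the set, with an interval that overlaps that of Csf1. It had 49.5, 45.0 and 52.0 CPM among controls and 89.5, 83.4 and 88.0 CPM under KO. The gap between the groups was much wider than the spread within them. The log2 fold change was 0.84 (SE 0.055, 1.79-fold, 95% interval 1.65 to 1.93, edgeR adjusted p = 9.46e-16). TSLP signals through a pair of chains. Of these Crlf2 was expressed and fell, with 29.1 ± 0.743 CPM against 24.2 ± 3.49 CPM and a log2 fold change of -0.27 (SD, n = 3, edgeR adjusted p = 0.0066), a call lost without KO replicate 1 (0.0632). Il7r, the other chain, had no count in any library.

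Il33 encodes an alarmin, a nuclear cytokine that is set free when epithelial cells are damaged (chromosome 19, 29925114 to 29960718, plus strand). It had 123, 114 and 83 counts among controls and 89, 64 and 88 counts under KO, or 6.70, 5.61 and 5.36 CPM and 4.76, 3.27 and 4.35 CPM. The groups did not overlap, but control replicate 3 and KO replicate 1 were close. Il33 fell by 0.52 on the log2 scale (SE 0.17, edgeR adjusted p = 0.0115), to 69.9% (95% interval 54.7 to 89.2). This was the least certain call of the set: it was lost without control replicate 1 (log2 fold change -0.41, edgeR adjusted p = 0.0865), without KO replicate 2 (-0.37, 0.0845) and against a minimum fold change of 1.5 (adjusted p = 1). Tslp and Il33, both epithelial cytokines, thus lay in opposite directions. Of the IL-33 receptor chains, Il1rl1 (ST2) was low and rose from 5, 6 and 10 counts to 16, 21 and 22 counts (log2 fold change 1.35, SE 0.45, edgeR adjusted p = 0.0100), a call lost without control replicate 1 (0.0606) or control replicate 2 (0.0629). Il1rl1 passed the filter on low counts only with its KO libraries, where it was higher, so its call carries less weight. The shared chain Il1rap fell by 0.23 (48.5 ± 2.75 CPM against 41.5 ± 0.644 CPM, SD, n = 3, edgeR adjusted p = 0.0016).

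Levels of different genes were compared per length, as CPM per kilobase of annotated exon. In the control libraries Cx3cl1 was highest with 62.9 ± 0.553, followed by Cxcl16 with 46.4 ± 2.55, Tslp with 36.7 ± 2.65 and Csf1 with 31.6 ± 1.47 CPM per kilobase (SD, n = 3). In the KO libraries the upper and the lower pair had changed places: Tslp was highest with 65.3 ± 2.41, then Csf1 with 51.8 ± 0.492, Cx3cl1 with 47.1 ± 2.33 and Cxcl16 with 39.0 ± 0.726 CPM per kilobase. Within each group the ranges of these 4 genes did not overlap. With the length of the longest transcript in place of all exons the order of these 4 was the same in both groups, but the control ranges of Tslp and Csf1 then overlapped. The other 6 genes were far lower, between 0.245 (Ccl7) and 7.49 (Ccl5) CPM per kilobase in the control and between 0.788 (Ccl7) and 3.80 (Ccl2) in the KO libraries. Among them Ccl5 and Ccl2, and Il33 and Cxcl10, had overlapping ranges in the control libraries. In the KO libraries Il33, Ccl20, Cxcl10 and Ccl7 each overlapped the next. Csf1 and Tslp together made up 34.1 ± 0.815% of the summed CPM of the 10 genes in the control and 53.1 ± 1.03% in the KO libraries, and the sum itself was 633 ± 5.40 and 679 ± 3.72 CPM (SD, n = 3 each). This share uses CPM without scaling by length. The pair was taken because both genes rose, so the higher share restates those rises and is no separate result.

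**Figure D4:**
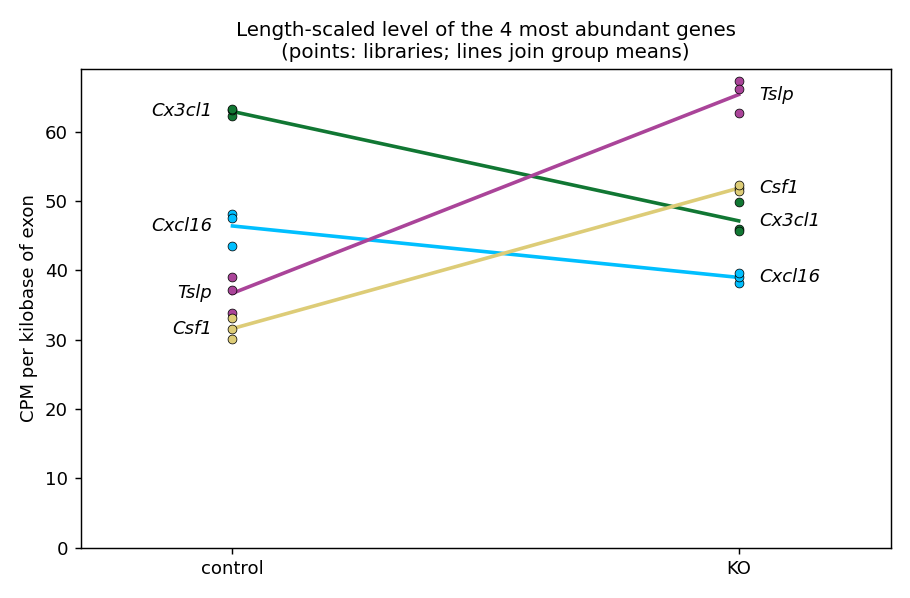
Length-scaled level (CPM per kilobase of exon, vertical axis from 0) of the 4 most abundant genes in the control and KO libraries; points are libraries (n = 3 each) and lines join the group means. Tslp and Csf1 lie below Cx3cl1 and Cxcl16 in the control libraries and above them in the KO libraries.

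Of 29 other listed attractants of these leukocytes, 28 had a row and 20 of those were below the filter, 14 of them with no count in any library. The remaining 8 could be tested, of which 2 rose and 2 fell, a share near the 54.6% called among all tested genes. Kitl and Ccl25, a CC chemokine of thymus and gut, rose, the latter with 5.12 ± 0.365 against 7.36 ± 1.58 CPM (SD, n = 3, log2 fold change 0.52, edgeR adjusted p = 0.0059). The Ccl25 call was lost without KO replicate 2 (edgeR adjusted p = 0.0507). Il34 fell, and so did Il18, an inflammasome-processed cytokine, by 0.63 (8.41 CPM against 5.41 CPM, edgeR adjusted p = 2.50e-04). Il7, a lymphocyte survival factor, stood at 12.4 and 13.4 CPM and did not pass (edgeR adjusted p = 0.405). Of the receptor genes for the set 5 could be tested, 1 of which rose and 3 fell, beside 27.1% and 27.5% of all tested genes. The 1 that rose, Il1rl1, passed the filter only with its KO libraries. Of the genes listed as atypical chemokine receptors, which lack classical signalling, Ackr3 fell by 0.83 (94.7 ± 4.32 CPM against 53.2 ± 2.68 CPM, edgeR adjusted p = 2.60e-16). Ccrl2 fell from 13, 15 and 21 counts to 1, 7 and 3 counts (log2 fold change -2.24, SE 0.56, edgeR adjusted p = 8.52e-04), and the other 3 were below the filter. Ccrl2 itself passed the filter only through its control libraries, where it was higher, so its call carries less weight. The log2 fold change of Ccrl2 was -3.07 without KO replicate 2 and -1.83 without KO replicate 1.

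Granulocyte growth factors and neutrophil attractants, the nearest related group, were set beside these values without a test of the difference. Of 13 tested, 10 fell and 2 rose, with a median log2 fold change of -1.30, against 7 and 2 of 9 and -0.52 here. Both of the 13 that rose had at most 7 counts in a control library and passed the filter on low counts only through their KO libraries. The number of rises in that group was thus partly set by the filter. Over all tested genes 27.5% fell and 27.1% rose, with a median of -0.0061. Csf2 and Csf3 fell by 3.66 and 1.60, whereas Csf1, also a colony-stimulating factor gene, rose by 0.71.

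Several genes of NF-kB and interferon signalling, pathways known to act on several of these genes, Cxcl10 and Ccl5 among them, were measured in the same libraries. Of 12 NF-kB subunits and feedback genes 4 fell, 2 rose and 6 did not pass, a share of calls near the 54.6% of all tested genes, with a median log2 fold change of -0.06. Nfkbia and Nfkbiz fell by 0.89 and 0.92, to 54.1% and 52.8% of the control level (edgeR adjusted p = 6.01e-21 and 1.46e-20), Nfkbie fell by 0.29, and the subunit gene Rel rose by 0.25 (edgeR adjusted p = 0.0076), a call lost without control replicate 2 (0.0970). Among genes of interferon signalling, Irf1 fell by 0.52 (109 ± 3.05 against 75.8 ± 1.57 CPM), Irf9 by 0.62 (18.5 ± 0.142 against 12.0 ± 1.06 CPM, SD, n = 3 each) and Jak2 by 0.35, while Ifnb1 had no count among controls and 1 under KO. The 15 tested genes of the response to enzymatic dissociation, which all libraries went through, split into 8 that rose, such as Atf3 (0.84), and 7 that fell, such as Egr1 (-1.31), Egr2 (-1.53) and Ier3 (-0.87), beside 27.1% and 27.5% of all tested genes. Against a minimum fold change of 1.5, Nfkbia and Nfkbiz kept their calls and Nfkbie, Rel, Irf1, Irf9 and Jak2 lost theirs (edgeR adjusted p = 1), as did Adam10, Adam17, Rhbdf1, Crlf2, Il1rap, Il34, Il18 and Ccl25 (1) and Il1rl1 (0.170). Whether any of these shifts has a part in the levels of the 10 genes was not tested.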

How the data were processed

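The authors deposited raw read counts for every gene and library, without normalization. Per the submitters' processing notes, FastQC 0.11.9, STAR 2.7.9a, featureCounts and R 4.1.1 were used, and the builds hg38 and mm10 are named without a role. The annotation release, the strand setting and the handling of multiply aligned reads were not given in the sources used here. Columns were matched to libraries by library name, with 0 left over.

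Counts were fitted over all genes with edgeR 4.0.16 in R 4.3.3 (filterByExpr with a minimum count of 10 and total of 15, TMM scaling, group as the only term, quasi-likelihood F-test, Benjamini-Hochberg adjustment over all tested genes, threshold 0.05). Fold changes are KO over control with a prior count of 0.125, SE is the log2 value over the root of the F statistic, and intervals have a level of 95%. CPM use the TMM-scaled totals. Intervals cover the spread between libraries. Positions, exon lengths and overlaps are from GENCODE M21 (mm10), which holds 98.2% of the table's symbols. Promoter windows are RefSeq's (GRCm38.p6), cut to the 250 bases before the start. Alternatives were DESeq2 1.42.0, limma-voom (limma 3.58.1), other scalings and filters, a minimum fold change of 1.5, the replicate number as a block, and leaving out each library.

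The 10 genes, the lists and the tests were chosen with earlier results of these data known. All 10 genes, and all listed receptors and sheddases, could be named, and of every other list the 5 tested genes with the smallest adjusted p. Genes at 0 counts, other markers, positional neighbours, Timp3, Cxcl9, Ccl6 and Ifnb1 were named after their values were seen. Some listed genes are not reported here. Replicates of a group differed by more than counting noise (chi-square per degree of freedom 2.28 to 4.69).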

Additional observations from a re-analysis of the deposited data

How the results depend on the processing

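The 9 calls, with 2 genes up and 7 down, were the same with DESeq2, limma-voom, RLE or upper quartile scaling, no filter and the replicate number as a block. Leaving out 1 library gave 8 or 9 calls, the missing one being Il33. With a mean of at least 5 CPM required, 6 of the genes were tested, without Ccl5, Ccl7, Ccl20 and Cxcl10, and all 6 passed. Against a minimum fold change of 1.5, 6 of 9 passed, without Cxcl16, Cx3cl1 and Il33. That test called 907 of all genes in place of 6639, and leaving out 1 library gave 5922 to 6276. Of 123 comparisons of a single gene of the set with an alternative, 118 kept direction and side of the threshold, 5 lost the call and none reversed, and Ccl7 could be fitted in 1 setting. The replicate numbers do not pair the libraries: deviations of same-numbered libraries correlated by -0.029, -0.0032 and -0.064, and with the replicate block 6443 genes were called. Upper quartile scaling moved the median of all genes to -0.029. For Ccl2, Ccl5, Ccl20, Cxcl10 and Il33, between 26 and 176 counts in a library limit the precision, and for Ccl7 between 2 and 18.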
